A study of Mus musculus with 6 samples.

Results

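The aminoacyl-tRNA synthetase genes of mouse macrophages were followed across 6 RNA-seq libraries. They were taken by symbol from a list of 37 cytosolic and mitochondrial synthetase symbols. Of these, 36 had a row among 26835 genes, and the other symbol, Mars1, is another name of Mars. The genes fell into 20 cytosolic enzymes and 16 mitochondrial enzymes, whose symbols end in 2. Bone marrow-derived macrophages were grown from BALB/C mice of 5 to 8 weeks and genotype WT, over 6 days in medium holding 10% serum and 25 ng/ml of M-CSF, the growth factor that drives marrow cells to macrophages. The vesicle-treated cells received 10 µg of K7M2-EVs, extracellular vesicles from the mouse osteosarcoma line K7M2, for 24 h (3 libraries). The control cells received PBS for the same 24 h (3 libraries). The series' design text names independent experiments, and the sources used here do not give whether each used a separate animal. The p-values measure the spread between these libraries.

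Aminoacyl-tRNA synthetases join each amino acid to its own tRNA, the step that fixes the genetic code. Most amino acids have a cytosolic enzyme and a separate mitochondrial enzyme, both encoded in the nucleus, while Gars and Kars each serve both compartments from one gene. Several cytosolic synthetases sit with scaffold proteins in a multi-synthetase complex. When amino acids run short or the endoplasmic reticulum is stressed, eIF2 kinases raise translation of the transcription factor ATF4, and cytosolic synthetase genes are among the genes it induces. Wars, the tryptophan enzyme, is also known as a gene induced by interferon gamma in human cells.

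Values are FPKM, fragments per kilobase of transcript scaled to the library's total, and a level can therefore be compared between genes per length. The read totals implied by the spacing of the values lay between 22084000 and 24034000 with K7M2-EVs and between 21436000 and 25606000 with PBS. Genes were called at a Benjamini-Hochberg adjusted p under 0.05 from limma on log2(FPKM + 1), over the 13009 genes that reached 1 FPKM in 3 or more libraries. Of those genes 18.4% were called higher and 35.6% were called lower with vesicles, and the median log2 fold change was −0.115. Macrophage markers were present in every library, with 8 of 8 listed, 5 of them called higher and 1 lower. Their summed level was 13900, 13700 and 12400 FPKM with K7M2-EVs and 4920, 4040 and 4870 FPKM with PBS. Most of that sum was Lyz2, with means of 10900 FPKM with K7M2-EVs and 3750 FPKM with PBS. By log2 fold change Adgre1 rose most (3.42), with means of 1820 FPKM with K7M2-EVs and 170 FPKM with PBS. Fcgr1 came next (1.58), with means of 60.9 FPKM with K7M2-EVs and 19.7 FPKM with PBS. Cd68 was the marker that fell, with means of 202 FPKM with K7M2-EVs and 411 FPKM with PBS, and Ptprc and Mertk were not called. The sum therefore does not measure the share of macrophages. In such bulk samples, fewer cells of a type and less RNA per cell cannot be told apart.

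Promoters of 27 of the 36 genes were found in the RefSeq table for GRCm38.p6, each spanning 250 bases before and 50 bases after the start of the gene. Cars, Hars, Lars, Nars, Rars, Vars, Wars, Hars2 and Pars2 had no entry and were not searched. A pair of motifs was searched on both strands, with the calls already known. The first was TGATGCAA, the C/EBP-ATF response element to which ATF4 binds with C/EBP partners, and the second was CACGTG, the E-box. The response element was present in 4 of 13 cytosolic promoters, those of Aars, Iars, Tars and Yars, and in 0 of 14 mitochondrial promoters. Over all 32851 promoters of the table it was present in 294, or 0.895%. The 4 genes were all called higher with the vesicles. So were Eprs, Farsa, Gars, Mars and Sars, whose promoters lacked the element. The 4 promoters that hold it are printed 5′ to 3′ on the strand of the gene, with the response element in capitals.
Aars: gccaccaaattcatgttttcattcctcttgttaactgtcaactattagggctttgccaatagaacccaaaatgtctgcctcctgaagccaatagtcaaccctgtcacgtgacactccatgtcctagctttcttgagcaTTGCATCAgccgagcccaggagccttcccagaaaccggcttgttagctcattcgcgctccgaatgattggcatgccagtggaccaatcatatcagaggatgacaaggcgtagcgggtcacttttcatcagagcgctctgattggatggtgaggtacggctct
Iars: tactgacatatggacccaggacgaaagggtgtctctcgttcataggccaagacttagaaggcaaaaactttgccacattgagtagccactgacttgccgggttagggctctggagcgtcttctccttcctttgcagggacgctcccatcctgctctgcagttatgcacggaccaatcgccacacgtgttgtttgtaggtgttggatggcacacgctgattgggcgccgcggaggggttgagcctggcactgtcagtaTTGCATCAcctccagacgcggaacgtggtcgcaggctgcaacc
Tars: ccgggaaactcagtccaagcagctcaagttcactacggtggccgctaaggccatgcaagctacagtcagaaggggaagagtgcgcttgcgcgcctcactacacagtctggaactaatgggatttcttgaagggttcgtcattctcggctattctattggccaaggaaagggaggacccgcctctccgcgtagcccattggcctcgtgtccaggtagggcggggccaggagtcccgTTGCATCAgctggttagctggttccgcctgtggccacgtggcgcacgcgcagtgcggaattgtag
Yars: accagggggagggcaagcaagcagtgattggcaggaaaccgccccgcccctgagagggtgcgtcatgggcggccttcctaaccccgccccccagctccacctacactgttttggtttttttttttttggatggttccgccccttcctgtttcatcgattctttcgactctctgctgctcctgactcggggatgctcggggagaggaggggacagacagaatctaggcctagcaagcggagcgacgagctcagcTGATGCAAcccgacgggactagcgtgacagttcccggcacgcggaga
The Aars promoter lies at chr8:111033592-111033891 on the plus strand, and its element begins 112 bases before the RefSeq gene start. In GENCODE the gene starts further upstream, at base 111033144, so this window lies inside the GENCODE gene. The Iars promoter lies at chr13:49681880-49682179 on the plus strand, with the element beginning at base 8 after the start. The Tars promoter lies at chr15:11399609-11399908 on the minus strand, with the element 15 bases before the start. The Yars promoter lies at chr4:129189653-129189952 on the plus strand, with the element at base 4 after the start. The copies of Aars, Iars and Tars read TTGCATCA, the reverse complement, and the copy of Yars reads TGATGCAA. The E-box was found in 4 of the 13 cytosolic promoters (Aars, Farsb, Iars and Tars) and in 1 of the 14 mitochondrial ones (Ears2), against 7.15% of all promoters. A match describes letters in the window and does not show a bound site.

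The cytosolic enzymes were mostly higher in macrophages given K7M2-EVs. Of 20 cytosolic genes tested, 14 rose, 1 fell (Dars) and 5 were not called (Cars, Farsb, Kars, Qars and Vars). Their median log2 fold change was 0.32, with a range of −0.23 to 0.80, against −0.115 over all genes tested. All 3 vesicle libraries lay above all 3 PBS libraries in 15 of the 20 genes and below them in 2, while 21.8% and 42.0% of all tested genes showed these patterns. The rises were small, since the ratio of the group means in the 14 genes that rose was 1.14 to 1.82. Summed over the 20 genes, the level was 330, 337 and 318 FPKM with K7M2-EVs and 238, 286 and 257 FPKM with PBS, so the groups did not overlap. The number that rose was 7 without K7M2-EV replicate 1, 8 without K7M2-EV replicate 2, 9 without PBS replicate 1 and 9 without PBS replicate 3. Aars, Eprs, Iars, Lars, Rars, Wars and Yars, 7 in all, kept their call in each of the 13 alternative settings.

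**Figure D1:**
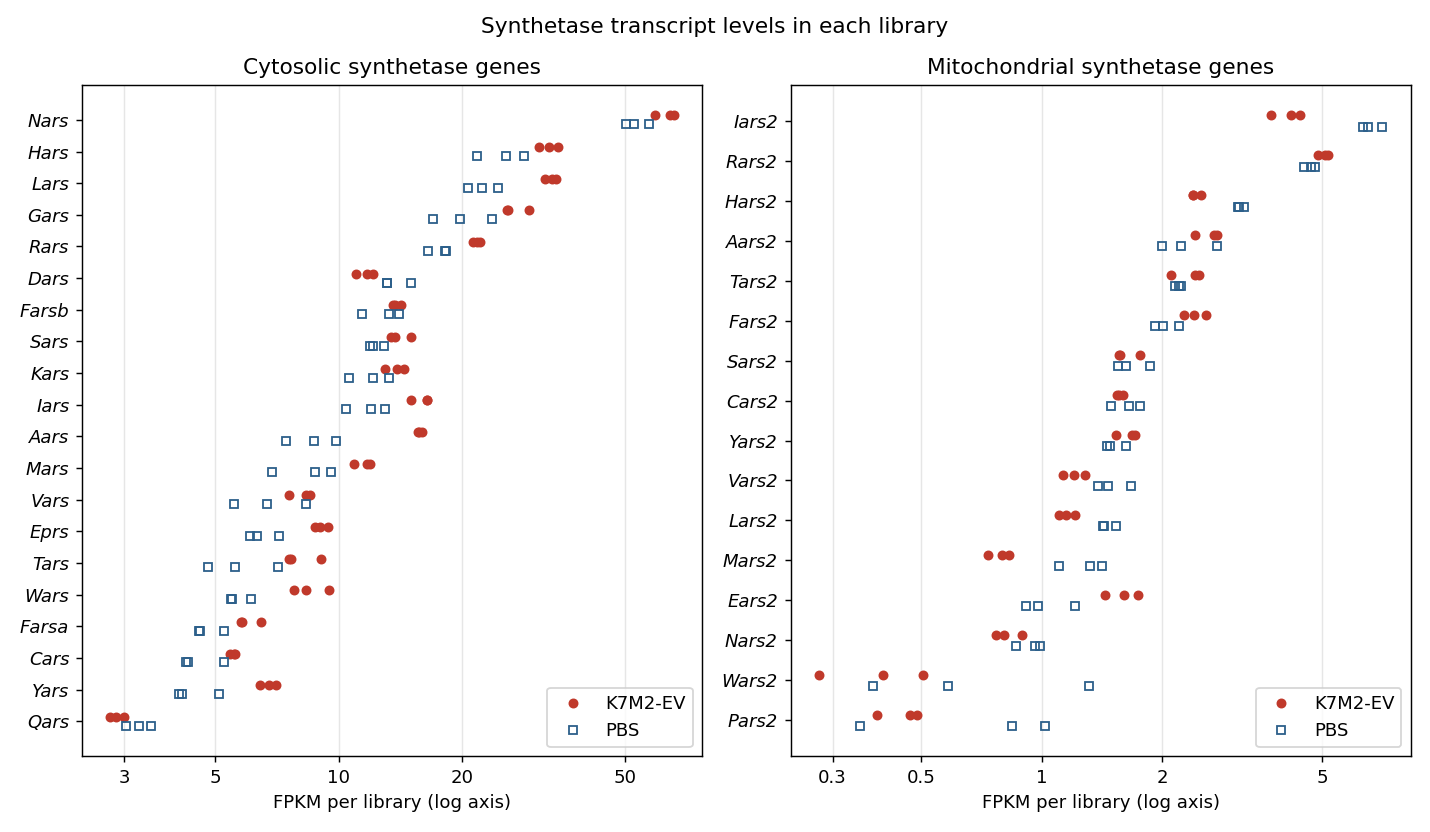
FPKM of each synthetase gene in each library on log axes, cytosolic genes left and mitochondrial genes right, with filled circles for the 3 K7M2-EV libraries and open squares for the 3 PBS libraries. The circles lie right of the squares in 15 of 20 cytosolic genes and in 3 of 16 mitochondrial genes.

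Aars, which charges alanine tRNA, showed the largest cytosolic difference. It was at 15.7, 16.0 and 15.6 FPKM with K7M2-EVs and at 7.42, 9.83 and 8.69 FPKM with PBS. Every vesicle library was far above the highest PBS library, and the vesicle libraries were close to each other. The means were 15.8 ± 0.203 FPKM and 8.65 ± 1.20 FPKM (SD, n = 3 each), a log2 fold change of 0.80 with an SE of 0.0928 (adjusted p = 0.000572). Aars lies at chr8:111033144-111057664 on the plus strand, and 15.1% of its exon bases are also covered by other genes, chiefly Exosc6 on the same strand. Exosc6, an exosome subunit named here for that overlap with its values known, had values of 0.72, 0.782 and 0.533 FPKM with K7M2-EVs and 6.35, 7.14 and 1.61 FPKM with PBS. It passed the filter on low values only through its PBS libraries and went the other way from Aars, with a log2 fold change of −1.69 (adjusted p = 0.015, and 0.0505 without K7M2-EV replicate 3).

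Lars, the leucine enzyme, was at 33.8, 33.2 and 31.9 FPKM with K7M2-EVs and at 20.7, 24.5 and 22.4 FPKM with PBS. The groups were well apart, with a log2 fold change of 0.53 ± 0.0709 (SE; adjusted p = 0.00105). Yars, the tyrosine enzyme, was at 6.76, 7.04 and 6.42 FPKM with K7M2-EVs and at 4.07, 5.09 and 4.15 FPKM with PBS. Its lowest vesicle library exceeded its highest PBS library, with a log2 fold change of 0.51 ± 0.0844 (SE; adjusted p = 0.00256). Eprs, a single protein that charges both glutamate and proline tRNAs, was at 8.98, 9.40 and 8.73 FPKM with K7M2-EVs and at 6.32, 7.15 and 6.09 FPKM with PBS. It rose by 0.42 ± 0.0673 on the log2 scale (SE; adjusted p = 0.00235). Iars, the isoleucine enzyme, was at 16.4, 15 and 16.4 FPKM with K7M2-EVs and at 10.4, 13.0 and 12.0 FPKM with PBS. It too had no overlap between groups and rose by 0.40 ± 0.0858 (SE; adjusted p = 0.00777). Rars, the arginine enzyme, was at 21.8, 22.1 and 21.3 FPKM with K7M2-EVs and at 16.5, 18.3 and 18.2 FPKM with PBS, a smaller but steady rise (log2 fold change 0.28, adjusted p = 0.00572).

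Wars, the tryptophan enzyme, was at 9.49, 7.79 and 8.31 FPKM with K7M2-EVs and at 5.47, 6.11 and 5.50 FPKM with PBS. All vesicle libraries were higher than all PBS libraries, and vesicle replicate 1 was the highest. The means were 8.53 ± 0.867 FPKM and 5.69 ± 0.364 FPKM (SD, n = 3 each), a ratio of 1.5 and a log2 fold change of 0.51 ± 0.0808 (SE; adjusted p = 0.00228). Wars (chr12:108860030-108894174, minus strand) thus lay beside Lars and Yars in size of change. Over the 13 alternatives its log2 fold change was 0.44 to 0.64, with an adjusted p of at most 0.0127. Of 10 interferon-induced genes listed with it, 8 were tested, 6 rose and 1 fell, with a median log2 fold change of 2.29. The shares of all tested genes were 18.4% higher and 35.6% lower. Isg15, a ubiquitin-like protein, averaged 101 ± 20.6 FPKM with K7M2-EVs and 6.07 ± 0.883 FPKM with PBS (log2 fold change 3.84). Ifit1, an RNA-binding antiviral protein, rose by 3.11 on the same scale. Irf1, a transcription factor induced by interferon gamma, fell by 0.47 on the log2 scale (adjusted p = 0.0111), at 3.96 ± 0.619 FPKM with K7M2-EVs and 5.88 ± 0.587 FPKM with PBS. Whether the rise of Wars goes with interferon signalling was not tested.

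The remaining genes that rose were less steady. Tars (threonine) was at 7.56, 9.07 and 7.63 FPKM with K7M2-EVs and at 4.81, 7.12 and 5.58 FPKM with PBS, and rose by 0.42 ± 0.134 on the log2 scale (SE; adjusted p = 0.0366). Gars (glycine) was at 25.9, 29.1 and 25.8 FPKM with K7M2-EVs and at 17.0, 23.7 and 19.8 FPKM with PBS, a log2 fold change of 0.41 ± 0.120 (SE; adjusted p = 0.0268). In both genes PBS replicate 2 was the highest control and came near the lowest vesicle library. Without any 1 of the K7M2-EV libraries, PBS replicate 1 or PBS replicate 3, the adjusted p was 0.0646 to 0.104 for Tars and 0.0550 to 0.0778 for Gars, and with no filter it was 0.0708 for Tars and 0.0532 for Gars.

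Mars (methionine) was at 11.9, 11.7 and 10.9 FPKM with K7M2-EVs and at 6.89, 9.57 and 8.76 FPKM with PBS, a log2 fold change of 0.42 (adjusted p = 0.0186). Hars (histidine) was at 32.5, 34.2 and 30.8 FPKM with K7M2-EVs and at 21.7, 28.3 and 25.6 FPKM with PBS, a log2 fold change of 0.36 (adjusted p = 0.0222). Groups stayed apart in both. Without K7M2-EV replicate 1 the adjusted p was 0.0603 for Mars and 0.0621 for Hars, without K7M2-EV replicate 2 it was 0.0510 for Mars and 0.0650 for Hars, and without PBS replicate 3 it was 0.0578 for Hars. Farsa, the alpha subunit of the phenylalanine enzyme, averaged 6.01 FPKM with K7M2-EVs and 4.81 FPKM with PBS and rose by 0.27 (adjusted p = 0.0189), while its partner Farsb, the beta subunit, was at 14.2, 13.6 and 13.7 FPKM with K7M2-EVs and at 11.4, 14 and 13.3 FPKM with PBS and was not called (adjusted p = 0.325). The subunits are needed in equal numbers for the working enzyme, and the difference between their changes was not tested. Farsa lost its call without K7M2-EV replicate 1 (adjusted p = 0.0636), PBS replicate 1 (0.0583), PBS replicate 2 (0.0557) or both libraries of replicate 2 (0.0690).

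Nars, the asparagine enzyme, had the highest level of all synthetases per length. It was at 64.2, 65.7 and 59.1 FPKM with K7M2-EVs and at 52.6, 57.0 and 50.3 FPKM with PBS, with a log2 fold change of 0.24 (adjusted p = 0.0290). Sars (serine) was at 13.7, 15 and 13.4 FPKM with K7M2-EVs and at 11.9, 12.9 and 12.1 FPKM with PBS, with a log2 fold change of 0.18 (adjusted p = 0.0472). In each gene the lowest vesicle library was just above the highest control. The Nars call was lost without K7M2-EV replicate 1, K7M2-EV replicate 2, PBS replicate 1 or PBS replicate 3 (adjusted p 0.0714 to 0.0976) and after quantile normalization (0.104). The Sars call was lost without any 1 of those libraries or K7M2-EV replicate 3 (0.0578 to 0.128), without both libraries of replicate 2 (0.0710) and with no filter (0.0785).

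Dars and Qars, the aspartate and glutamine enzymes, were the cytosolic genes with lower values after vesicles. Dars fell, at 12.1, 11.7 and 11 FPKM with K7M2-EVs and 13.1, 15 and 13.1 FPKM with PBS. The groups did not overlap, with a log2 fold change of −0.23 ± 0.0699 (SE; adjusted p = 0.0316). Qars had the lowest cytosolic level, at 2.86, 3.00 and 2.77 FPKM with K7M2-EVs and at 3.03, 3.26 and 3.48 FPKM with PBS, and was not called (log2 fold change −0.13, adjusted p = 0.123, and 0.02 after quantile normalization). The call of Dars was lost without K7M2-EV replicate 2 (adjusted p = 0.0673), K7M2-EV replicate 3 (0.103), PBS replicate 2 (0.0640), PBS replicate 3 (0.0512) or both libraries of replicate 2 (0.103). It was also lost with no filter (0.0576) and under median-of-ratios scaling (0.256), where its log2 fold change was −0.09. Set against the median of all genes, Dars stood at −0.11 and Qars at −0.02 on the log2 scale.

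Of the 3 other cytosolic genes that were not called, Cars (cysteine) was at 5.42, 5.59 and 5.55 FPKM with K7M2-EVs and at 4.28, 5.26 and 4.25 FPKM with PBS. Its groups did not overlap, and its adjusted p was 0.0525, or 0.0498 with the replicate number as a block and 0.00622 without PBS replicate 2. The adjusted p of Cars was 0.0894 with no filter and 0.104 to 0.155 without any 1 of the other libraries. Of the 13 alternatives, 6 gave a call and 7 did not. Vars (valine) was at 7.58, 8.49 and 8.33 FPKM with K7M2-EVs and at 5.55, 8.32 and 6.70 FPKM with PBS. Kars (lysine) was at 13.0, 13.9 and 14.4 FPKM with K7M2-EVs and at 10.6, 13.3 and 12.1 FPKM with PBS. In both, PBS replicate 2 lay within the range of the vesicle libraries.

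**Figure D2:**
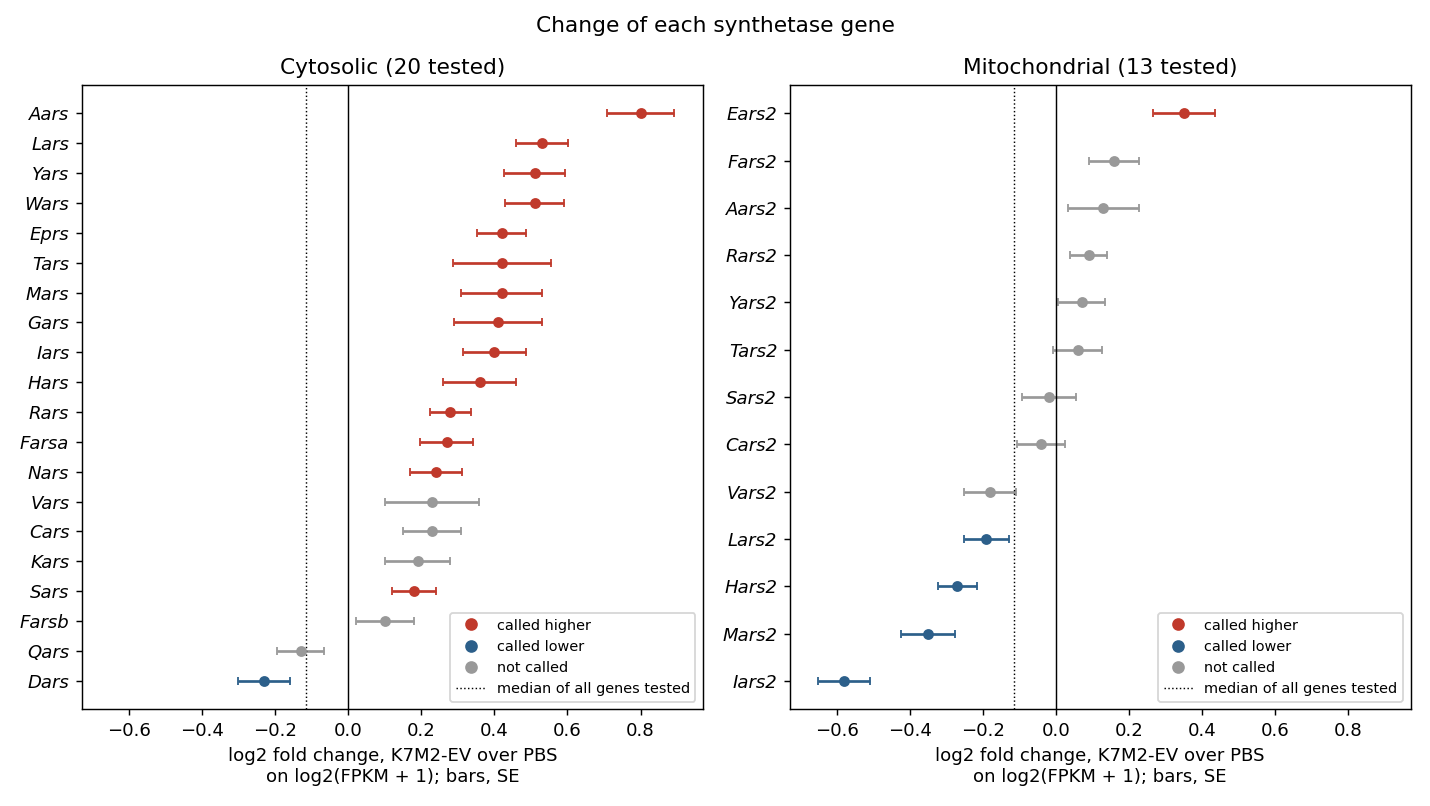
log2 fold change of K7M2-EV over PBS with its SE for each synthetase gene tested, 20 cytosolic left and 13 mitochondrial right, with the median of all genes as a dotted line at −0.115. Cytosolic genes run from −0.23 (Dars) to 0.80 (Aars), and mitochondrial genes from −0.58 (Iars2) to 0.35 (Ears2).

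The rises were spread over both structural classes of synthetase, which differ in the fold of the catalytic domain. Of 9 class I enzymes 6 rose (median log2 fold change 0.40), and of 10 class II enzymes 7 rose and 1 fell (median 0.25), with Eprs holding one domain of each. Of the 8 enzymes of the multi-synthetase complex 5 rose and 1 fell (median 0.34), and of the 12 outside it 9 rose (median 0.32). Among the scaffold proteins of the complex, Eef1e1 (also called AIMP3) rose, at 8.55 ± 0.901 FPKM with K7M2-EVs and 5.32 ± 0.636 FPKM with PBS (SD, n = 3 each; log2 fold change 0.59, adjusted p = 0.00285). Aimp1 had a log2 fold change of 0.09 (adjusted p = 0.240) and Aimp2 one of 0.12 (adjusted p = 0.505, and −0.01 without PBS replicate 1), and neither was called.

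Replicate 2 stood apart in both groups. PBS replicate 2 was the highest PBS library in 18 of the 20 cytosolic genes, and K7M2-EV replicate 2 was the highest vesicle library in 12 of them. The same libraries had the most transcripts of the 9 listed mesenchymal markers, whose sum was 288, 669 and 278 FPKM with K7M2-EVs and 141, 341 and 156 FPKM with PBS, led by the collagen gene Col1a1, with Thy1 near 0. Of these 9 markers 8 were tested. Lox, a collagen cross-linking enzyme, rose with vesicles, at 75.1, 92.7 and 70.8 FPKM with K7M2-EVs and 15.8, 45.7 and 18.7 FPKM with PBS (log2 fold change 1.68, adjusted p = 0.00962). Runx2, a bone transcription factor that passed the filter only through its PBS libraries, fell by 0.54 (adjusted p = 0.00488), and the other 6 were not called. With both libraries of replicate 2 left out, a check added after the data were seen, 13 cytosolic genes rose. Neutrophil markers summed to 39.6, 44.0 and 44.3 FPKM with K7M2-EVs and to 5.46, 5.32 and 3.02 FPKM with PBS, mostly from S100a8. Camp, a granule peptide of neutrophils, also rose, at 2.14, 3.27 and 1.26 FPKM with K7M2-EVs and 0.24, 0.309 and 0.0514 FPKM with PBS (log2 fold change 1.38, adjusted p = 0.00273), having passed the filter only through its vesicle libraries. S100a9 was not called, with means of 0.517 FPKM with K7M2-EVs and 0.783 FPKM with PBS (limma log2 fold change −0.22, adjusted p = 0.662). Ngp and Ltf were not tested, and their means were also lower with vesicles. Ngp averaged 0.329 FPKM with K7M2-EVs and 0.453 FPKM with PBS, and Ltf averaged 0.0249 and 0.0496 FPKM in that order. Ly6g was at 0 in the vesicle libraries, and Mpo was near 0 in both groups. Lymphocyte markers summed to at most 0.126 FPKM in any library. The part of mesenchymal or neutrophil transcripts in the synthetase values was otherwise not tested.

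Of 16 mitochondrial genes, 13 passed the filter on low values, and Nars2, Pars2 and Wars2 did not. Of those 13, Ears2 rose, 4 fell (Iars2, Mars2, Hars2 and Lars2) and 8 were not called. Mars2 passed the filter only through its PBS libraries, and Ears2 through its vesicle libraries and 1 PBS library, so these 2 calls follow the group that carried the gene into the test. Neither the share that rose nor the share that fell exceeded that of all tested genes, 18.4% higher and 35.6% lower. The median log2 fold change was −0.02, with a range of −0.58 to 0.35. Vesicle libraries lay above all PBS libraries in 3 of the 16 genes, below them in 5, and the groups overlapped in 8. These 3 and 5 genes were all among the 13 tested. Of all tested genes, 21.8% lay above and 42.0% below. Over the 13 tested genes the share above was thus near that of all genes, and the share below was under it. With no filter, all 16 were tested, and 1 rose and 3 fell. The summed level was 29.6, 29.9 and 31.0 FPKM with K7M2-EVs and 32.9, 34.0 and 33.7 FPKM with PBS. Mitochondrial enzymes had far fewer reads than cytosolic ones, with 23 to 1480 implied reads per gene and library against 414 to 6717.

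Iars2, the mitochondrial isoleucine enzyme, had the highest control level of the group and, among the 13 tested genes, the log2 fold change furthest from 0 on the log2(FPKM + 1) scale. By the ratio of means, Wars2 (0.521), Pars2 (0.606) and Mars2 (0.617), all of lower level, lay at or below Iars2 (0.619). It was at 3.74, 4.40 and 4.19 FPKM with K7M2-EVs and at 6.33, 7.08 and 6.51 FPKM with PBS. The highest vesicle library was well below the lowest PBS library, with a log2 fold change of −0.58 ± 0.0706 (SE; adjusted p = 0.000708). It was called lower in each of the 13 alternatives, between −0.68 and −0.46. Iars2 lies at chr1:185284726-185329396 on the minus strand, and 24.2% of its exon bases are covered by genes on the other strand, among them Rab3gap2. That neighbour, a regulator of the small GTPase Rab3 also named with its values known, had values of 6.60, 6.27 and 6.70 FPKM with K7M2-EVs and 9.21, 9.25 and 9.85 FPKM with PBS (log2 fold change −0.47, adjusted p = 0.000437). The strand setting of the counting is not given, so reads from the shared bases cannot be assigned to one of the genes.

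Hars2 (histidine) was at 2.50, 2.38 and 2.39 FPKM with K7M2-EVs and at 3.19, 3.10 and 3.09 FPKM with PBS, tight groups with a clear gap. Its log2 fold change was −0.27 ± 0.0532 (SE; adjusted p = 0.00563). It shares 195 exon bases with its cytosolic partner Hars on the other strand, which went in the opposite direction. Mars2 (methionine) was at 0.735, 0.826 and 0.794 FPKM with K7M2-EVs and at 1.10, 1.32 and 1.41 FPKM with PBS, with a log2 fold change of −0.35 (adjusted p = 0.00839). Lars2 (leucine) was at 1.10, 1.15 and 1.21 FPKM with K7M2-EVs and at 1.53, 1.43 and 1.42 FPKM with PBS, a log2 fold change of −0.19 (adjusted p = 0.0371). The groups of Lars2 did not overlap, but its call was lost without any 1 of the 6 libraries (adjusted p 0.0638 to 0.113) and with the replicate number as a block (0.0687), with no filter (0.0517), under median-of-ratios scaling (0.205) and without both libraries of replicate 2 (0.118). After quantile normalization, the log2 fold change was −0.10 for Hars2 (adjusted p = 0.201), −0.10 for Mars2 (0.344) and 0.02 for Lars2.

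Ears2, the mitochondrial glutamate enzyme, was the mitochondrial gene that rose. It was at 1.74, 1.44 and 1.60 FPKM with K7M2-EVs and at 0.914, 1.21 and 0.978 FPKM with PBS. The groups did not overlap, and the log2 fold change was 0.35 ± 0.0843 (SE; adjusted p = 0.0130, or 0.0512 without PBS replicate 3). Of its controls, only PBS replicate 2 reached 1 FPKM. The enzyme also charges the mitochondrial glutamine tRNA with glutamate, which an amidotransferase then converts to glutamine. Of the 3 subunits of that enzyme, Gatb fell by 0.32 on the log2 scale (adjusted p = 0.00671, and 0.264 after quantile normalization), at 1.58 ± 0.0743 FPKM with K7M2-EVs and 2.21 ± 0.141 FPKM with PBS. Gatc, named like Qrsl1 with its values known, fell by 0.24 (adjusted p = 0.00668, and 0.123 under median-of-ratios scaling), at 9.15 ± 0.114 FPKM with K7M2-EVs and 10.9 ± 0.441 FPKM with PBS. Qrsl1 was not called (log2 fold change −0.07, adjusted p = 0.543), and its sign turned under both scalings tried.

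The mitochondrial genes that were not called had log2 fold changes of −0.18 (Vars2, valine) to 0.16 (Fars2, phenylalanine). Vars2 was at 1.28, 1.20 and 1.13 FPKM with K7M2-EVs and at 1.38, 1.46 and 1.67 FPKM with PBS, with no overlap (adjusted p = 0.0740). Fars2 had an adjusted p of 0.0838, and its groups did not overlap either. Aars2 (alanine), Rars2 (arginine), Yars2 (tyrosine), Tars2 (threonine), Sars2 (serine) and Cars2 (cysteine) had log2 fold changes of 0.13, 0.09, 0.07, 0.06, −0.02 and −0.04 in that order. Below the filter, Nars2 (asparagine) was at 0.894, 0.769 and 0.802 FPKM with K7M2-EVs and at 0.959, 0.988 and 0.860 FPKM with PBS. Pars2 (proline) was at 0.488, 0.388 and 0.469 FPKM with K7M2-EVs and at 0.841, 0.352 and 1.02 FPKM with PBS. Wars2 (tryptophan) was at 0.277, 0.402 and 0.505 FPKM with K7M2-EVs and at 1.31, 0.378 and 0.582 FPKM with PBS. The groups overlapped in all 3.

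**Figure D3:**
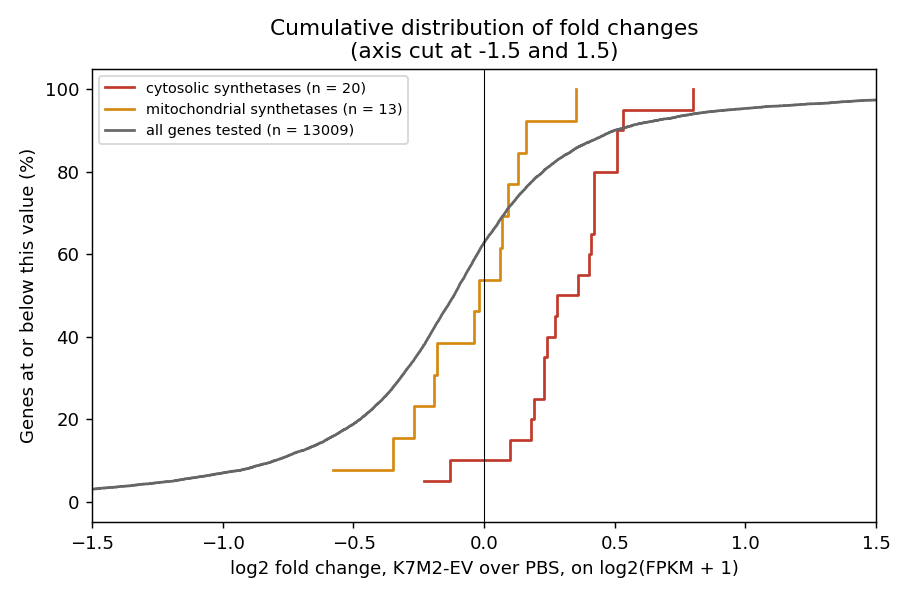
Share of genes, in percent, at or below each log2 fold change of K7M2-EV over PBS, for the 20 cytosolic genes, the 13 mitochondrial genes and the 13009 genes tested, with the axis cut at −1.5 and 1.5. The cytosolic line is shifted right (median 0.32), while the mitochondrial line (median −0.02) lies nearer the line of all genes (median −0.115).

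The values also depended on how libraries were scaled to each other. Under median-of-ratios scaling the median of all genes was −0.002 in place of −0.115, and 50.5% of calls were higher in place of 34.1%. With that scaling 18 of 20 cytosolic genes rose and none was called lower (limma; 0 at an unadjusted p under 0.05), and 3 mitochondrial genes rose and 3 fell. Of all tested genes, 26.5% were called higher and 26.0% lower under it. After quantile normalization, with 48.9% of calls higher, 14 cytosolic genes rose and 1 fell, and 6 mitochondrial genes rose and 1 fell. There 24.1% of all tested genes were called higher and 25.2% lower. The cytosolic median was 0.46 under median-of-ratios scaling and 0.34 after quantile normalization, and the mitochondrial median was 0.07 under the first and 0.18 after the second. The sign of the mitochondrial median therefore changed with the scaling, as the median of all genes moved from −0.115 to −0.002 and 0.0. In each of these settings the mitochondrial median lay above the median of all genes. The cytosolic median was above 0 throughout and higher than the mitochondrial one. Measured from the median of all genes, Aars stood at 0.92, Wars at 0.62 and Iars2 at −0.47 on the log2 scale.

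The ratio of a cytosolic to a mitochondrial enzyme for the same amino acid, taken within a library, does not move with a factor common to that library. In 17 such pairs the ratio was higher in all vesicle libraries than in all PBS libraries in 11, lower in none, and overlapping in 6. Of single tested genes, 21.8% had all vesicle libraries above all PBS libraries and 42.0% had them below. Those shares are not for ratios, and none was computed for ratios of other gene pairs, so the count of 11 has no like background. The log2 difference was positive in 15 of 17 pairs, with a median of 0.50. With 3 libraries a group, the smallest p that an exact two-sided permutation test can give is 0.1 (0.155 after adjustment over the pairs), so no pair could pass 0.05.

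The Iars to Iars2 ratio was 4.37, 3.41 and 3.93 with K7M2-EVs and 1.65, 1.84 and 1.85 with PBS. Mars to Mars2 was 16.1, 14.2 and 13.7 with K7M2-EVs and 6.27, 7.28 and 6.23 with PBS. Lars to Lars2 was 30.6, 28.8 and 26.3 with K7M2-EVs and 13.5, 17.2 and 15.8 with PBS. In these pairs the cytosolic gene rose and the mitochondrial gene fell. Hars to Hars2 was 13.0, 14.4 and 12.9 with K7M2-EVs and 6.81, 9.14 and 8.28 with PBS, again with both partners called in opposite directions. Aars to Aars2 was 6.53, 5.93 and 5.68 with K7M2-EVs and 3.72, 3.58 and 3.91 with PBS, through the cytosolic gene, since Aars2 was not called. Wars to Wars2 was 34.3, 19.4 and 16.5 with K7M2-EVs and 4.17, 16.2 and 9.45 with PBS, where PBS replicate 2 came close to the vesicle libraries and Wars2 had few reads. The Eprs to Ears2 ratio was the other way round, at 5.17, 6.53 and 5.47 with K7M2-EVs and 6.91, 5.89 and 6.23 with PBS, and its groups overlapped. Eprs and Fars2 each entered 2 pairs, so the pairs are not all separate genes.

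**Figure D4:**
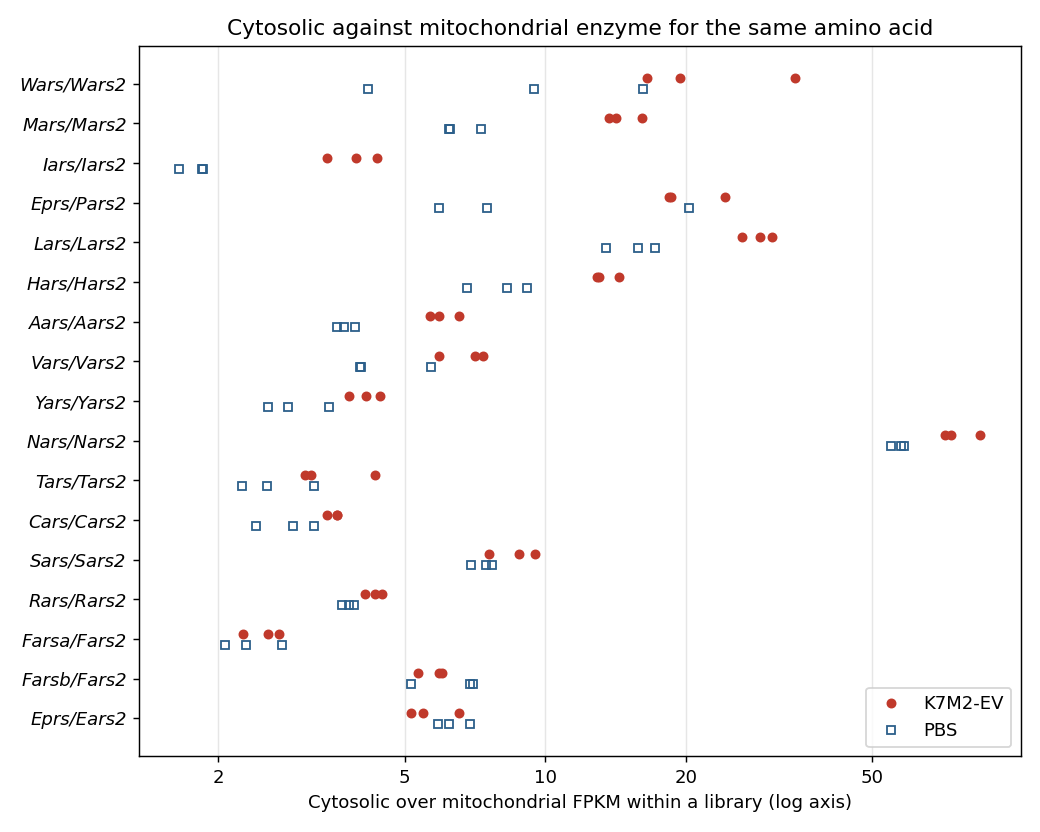
Ratio of cytosolic to mitochondrial FPKM within each library for 17 pairs, on a log axis, with filled circles for K7M2-EV libraries and open squares for PBS libraries. Circles lie right of all squares in 11 pairs, among them Iars over Iars2 (3.41 to 4.37 with K7M2-EVs, 1.65 to 1.85 with PBS) and Mars over Mars2 (13.7 to 16.1 with K7M2-EVs, 6.23 to 7.28 with PBS).

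Most other translation genes listed were not called. Of 6 cytosolic elongation factor genes, 1 was called, Eef2k, the kinase that inhibits elongation factor 2, which fell to 0.818 ± 0.186 FPKM with K7M2-EVs, against 2.00 ± 0.325 FPKM with PBS (log2 fold change −0.72, adjusted p = 0.00213). Eef2k passed the filter through its PBS libraries. The median of those 6 genes was −0.11, close to that of all genes. Of 12 mitochondrial translation genes, 3 fell and 9 were not called, with a median of −0.15. That share lay below the 35.6% of all tested genes that fell. Among them Mtfmt, which formylates the initiator methionyl-tRNA, fell by 0.33 (adjusted p = 0.0175, but 0.0608 without K7M2-EV replicate 3, 0.0548 without PBS replicate 3, 0.0514 without both libraries of replicate 2, 0.0631 under median-of-ratios scaling and 0.305 after quantile normalization). Of 8 genes for tRNA proofreading and related steps, 1 rose and 3 fell, while 18.4% of all tested genes rose and 35.6% fell. Yrdc, which acts in a tRNA modification at the anticodon loop, rose by 0.42 (adjusted p = 0.0102). Of 8 genes for MYC and its growth targets, 2 rose, with a median of 0.08, against the same 18.4% of all tested genes. Fbl, a nucleolar methyltransferase, averaged 7.83 ± 0.454 FPKM with K7M2-EVs and 5.46 ± 0.896 FPKM with PBS (log2 fold change 0.46).

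Genes of the eIF2 and ATF4 pathway were mixed. Eif2s1, the eIF2 alpha subunit that the stress kinases phosphorylate, rose, at 28.0 ± 0.678 FPKM with K7M2-EVs and 17.9 ± 1.37 FPKM with PBS (log2 fold change 0.62, adjusted p = 0.000396). Eif2ak4, the kinase GCN2 that senses uncharged tRNA, was at 2.54, 2.57 and 2.66 FPKM with K7M2-EVs and at 5.02, 4.82 and 5.13 FPKM with PBS. It fell in every vesicle library, with a log2 fold change of −0.74 ± 0.0521 (SE; adjusted p = 6.87e-05), and Impact, an inhibitor of GCN2 activation, fell by 0.50 (adjusted p = 0.000548). Eif2ak2, the double-stranded RNA kinase PKR and an interferon-induced gene, rose by 0.45 (adjusted p = 0.00313). Over all 9 genes of this list, 3 rose and 2 fell, with a median of −0.03, while 18.4% of all tested genes rose and 35.6% fell.

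Of 34 genes listed for the ATF4 programme, 27 were tested, 11 rose and 4 fell, with a median log2 fold change of 0.19. Of all tested genes, 18.4% were called higher and 35.6% lower. Atf4 averaged 75.5 ± 3.24 FPKM with K7M2-EVs and 61.8 ± 5.15 FPKM with PBS (SD, n = 3 each; log2 fold change 0.29, adjusted p = 0.0183). That call was lost without K7M2-EV replicate 1 (adjusted p = 0.0519), K7M2-EV replicate 2 (0.0571) or PBS replicate 3 (0.0605). Its partner Cebpb rose by 1.54, while Atf3 fell to 56.1 ± 5.03 FPKM with K7M2-EVs, against 171 ± 26.3 FPKM with PBS (log2 fold change −1.59, adjusted p = 9.92e-05), and Cebpg fell by 0.63. Chac1, a glutathione-degrading enzyme, averaged 4.43 ± 0.525 FPKM with K7M2-EVs and 1.29 ± 0.282 FPKM with PBS (log2 fold change 1.25, adjusted p = 0.000218). Mthfd2, a mitochondrial folate enzyme, rose by 1.36, and Slc7a11, the cystine transporter, rose by 1.71. Asns, asparagine synthetase, was at 10.5, 12.1 and 9.68 FPKM with K7M2-EVs and at 4.17, 8.24 and 5.09 FPKM with PBS, with PBS replicate 2 again the highest control (log2 fold change 0.82, adjusted p = 0.0172, but 0.0519 without K7M2-EV replicate 2 and 0.0623 without PBS replicate 3). Trib3, a pseudokinase that restrains ATF4, rose by 0.61 (adjusted p = 0.0183, but 0.0615 without PBS replicate 1 and 0.0601 without PBS replicate 3). Ddit3, the stress factor CHOP, was not called (log2 fold change −0.16, adjusted p = 0.124, or 0.0442 without PBS replicate 3). Its gene overlaps 2.0% of the exon bases of Mars. Whether the synthetases moved with ATF4 activity was not tested.

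**Figure D5:**
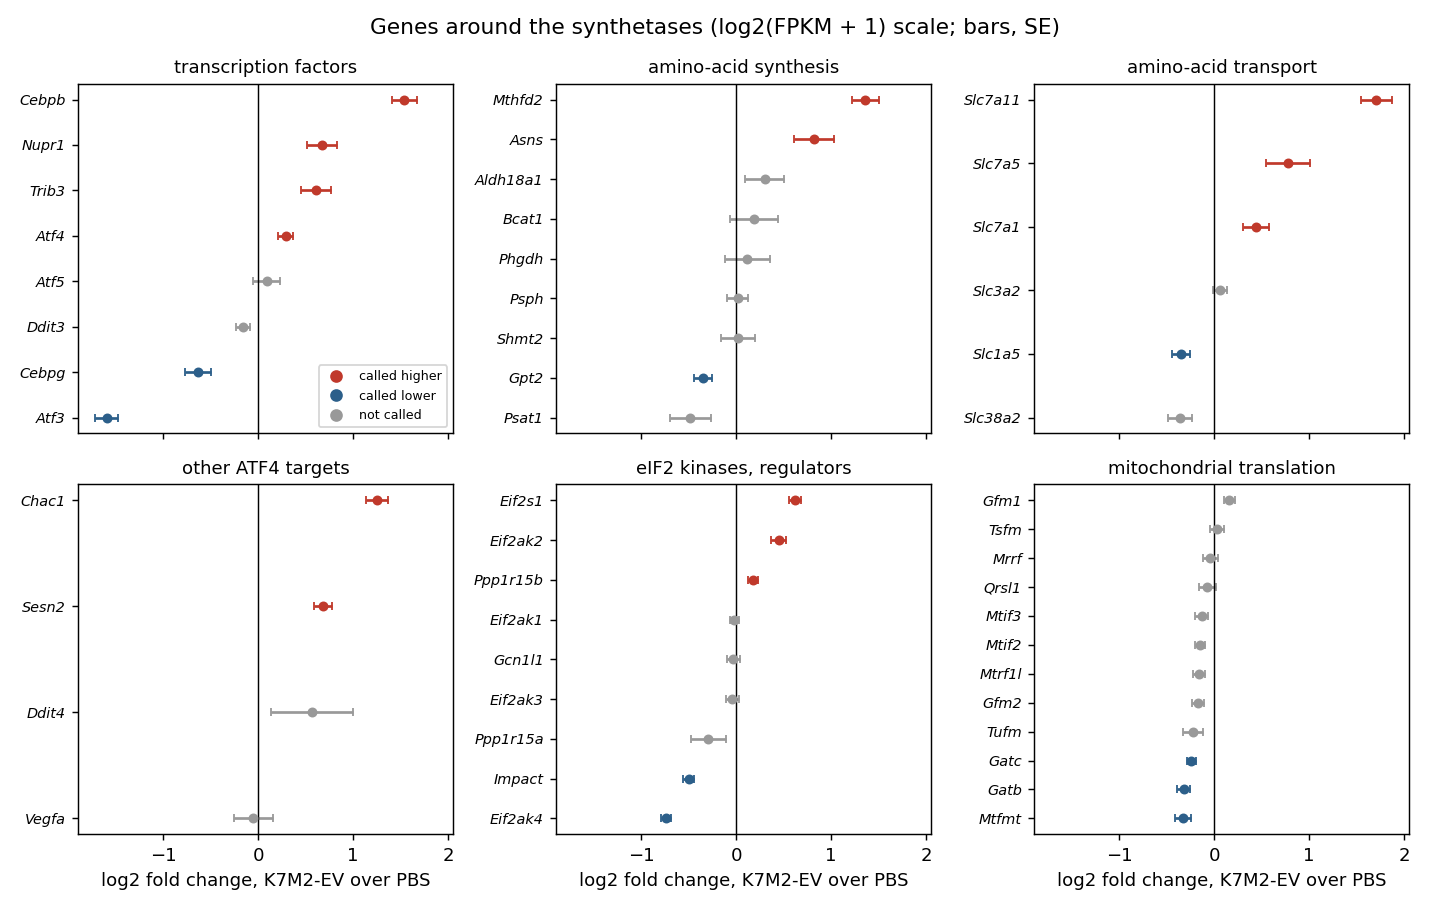
log2 fold change of K7M2-EV over PBS with its SE for genes of the ATF4 programme (4 panels), for eIF2 kinases and regulators, and for mitochondrial translation, coloured by call. Slc7a11 (1.71) and Cebpb (1.54) lie furthest right, Atf3 (−1.59) furthest left, and the mitochondrial translation genes lie between −0.33 and 0.16.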

How the data were processed

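RNA was measured by sequencing in 6 libraries, 3 of macrophages given K7M2-EVs and 3 given PBS. Per the labels' protocols, TRIzol-extracted total RNA went into libraries of the NEBNext Ultra RNA type. Tools named in the submitters' processing notes, with no role stated, are HISAT2 2.1.0, StringTie 1.3.4b, CASAVA 1.8 and edgeR, with the build GRCm38. The authors deposited FPKM values, 1 table of 26883 rows per library. No source used here gives a strand setting.

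From these, 1 row without a value and 47 repeated rows were dropped (of a repeated symbol, only its highest row stayed), leaving 26835 genes. Gene positions and exon overlaps were read from GENCODE M21 (GRCm38), in which 99.6% of symbols were found. Read totals were implied from the spacing of FPKM times exon length, where 72.3% to 73.1% of low values (up to 20 reads) came out whole within 0.1 (20% by chance). Genes that reached 1 FPKM in 3 or more libraries were fitted on log2(FPKM + 1) with limma 3.58.1 (trend and robust, statmod 1.5.0, R 4.3.3), two-sided, with Benjamini-Hochberg adjustment over 13009 genes. A fold change on this scale understates the change of low genes. The fit was tested on simulated data. Tables and plots used Python 3.11.15, numpy 2.4.6, pandas 2.3.3 and matplotlib 3.10.9.

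The members, gene lists and motifs were chosen with earlier results of these data known. Named genes were all members, the 2 largest called rises and 2 largest called falls of each related list, and 9 genes taken whatever their result. Exosc6, Rab3gap2, Gatc and Qrsl1 were added with their values known. Where several related lists are counted, the counts cover all their tested genes. Replicate numbers come from the sample titles. Deviations from the group means correlated between same-numbered libraries at 0.317, 0.294 and 0.209, each above every correlation between different numbers, so the numbers appear to pair the libraries, though no label states it. The calls come from a fit without the block, and the fit with it is an alternative. Alternatives were another pseudocount (0.1), no filter, a filter at 5 FPKM, median-of-ratios scaling, quantile normalization, the replicate number as a block, each library left out, and, added after the data were seen, both libraries of replicate 2 left out.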

Additional observations from a re-analysis of the deposited data

How the results depend on the processing

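Counts of called genes moved more than single directions. Leaving out 1 library at a time gave 7 to 16 cytosolic genes higher and 0 to 1 lower, 0 to 1 mitochondrial genes higher and 2 to 3 lower, and over all genes 1772 to 2390 higher and 3296 to 4253 lower. By limma, 0 cytosolic genes were called lower under median-of-ratios scaling, with no filter and with both libraries of replicate 2 left out (0, 1 and 0 at an unadjusted p under 0.05). By limma, 0 mitochondrial genes were called higher at the 5 FPKM filter, where 1 was tested (0 at an unadjusted p under 0.05). With both libraries of replicate 2 left out, 0 of 11 tested were called higher by limma (0 at an unadjusted p under 0.05). Ears2 and Mars2 did not pass the filter there, so their calls were not tested again. Under median-of-ratios scaling 3 mitochondrial genes were called higher, and after quantile normalization 6 were, where 26.5% and 24.1% of all tested genes were. Mitochondrial genes called lower numbered 2 of 11 tested with replicate 2 left out, 1 of 1 at the 5 FPKM filter and 1 of 13 after quantile normalization. Without any 1 PBS library, 12 were tested and 2 were called lower, since Mars2 no longer passed the filter. At the 5 FPKM filter fewer genes were tested, and over all of them 1792 were higher and 2153 lower, or 45.4% of calls higher in place of 34.1%. With the replicate block, 15 cytosolic genes were higher and 1 lower, 1 mitochondrial gene was higher and 3 were lower, and over all genes 2495 were higher and 4787 lower. Pairing changed the call of Cars, Lars2 and, among the related genes named, Polr1b (adjusted p = 0.0539), and of no other named gene. Wars kept its direction and call in all 13 alternatives. Among the named genes tested, signs turned in Lars2 and in 6 genes that were not called. Cars2 was at 0.05 under median-of-ratios scaling and 0.17 after quantile normalization. Sars2 was at 0.07 and 0.18 under the same settings, at 0.04 with replicate 2 left out and at −0.06 to 0.03 without 1 library. Lars2, Qars and Vars2 were at 0.02, 0.02 and 0.03 after quantile normalization, and Aimp2 was at −0.01 to 0.23 without 1 library. Qrsl1 was at 0.02 under median-of-ratios scaling, at 0.14 after quantile normalization and at −0.12 to 0.0 without 1 library. The causes were not tested.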
